A study of Rattus norvegicus with 10 samples.

Results

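The genes described here encode the enzymes that attach coenzyme A to fatty acids. They are the long-chain acyl-CoA synthetases Acsl1, Acsl3, Acsl4, Acsl5 and Acsl6, the acetyl-CoA synthetase Acss2, and the fatty acid transport proteins Slc27a2 and Slc27a4. Members were the probe sets that the array annotation gives exactly 1 symbol, where that symbol is one of these 8 genes. They are 8 of the 14217 genes that the array names this way. They have 12 of the 31042 probe sets other than controls, with 3 probe sets for Acsl1, 2 each for Acsl5 and Acsl6 and 1 for each of the other genes.

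Liver RNA came from 10 rats of strain Wistar/ST, all fed a high-fat diet. In the mulberry group, 5 rats received 500 mg of dried mulberry leaf powder per kg and day through a gastric probe. In the control group, 5 rats received 0 mg. Both groups were dosed after an overnight fast, the powder was suspended in carboxymethylcellulose, and livers were taken after 7 weeks. Age and sex are not given in the labels. Each rat has 1 array, and the SD over arrays thus holds animal and measurement variation together. The comparison asks what the leaf powder does to liver transcripts in fat-fed rats.

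A free fatty acid has to be activated before the liver can use it. Acyl-CoA synthetases couple the acid to coenzyme A with ATP, and the resulting acyl-CoA can be oxidised, built into triglyceride and phospholipid, or elongated. Family members differ in the chain length they prefer and in the membrane they sit on, which is thought to direct acyl-CoA towards one pathway or another.

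The deposited values are linear signal intensities, scaled so that the trimmed mean was 500 on every array. Any pair of arrays correlated with r of at least 0.957. Of the 12 member probe sets, 9 lay above the filter for low values, an intensity of 61.1, and they cover 7 of the 8 genes. Both Acsl6 probe sets and the third Acsl1 probe set lay under it and are described without a test. The 9 tested hepatocyte markers, such as Alb and Ttr, summed to intensities of 265437 to 316946 in mulberry rats and 260703 to 305926 in control rats. RNA was taken from whole liver, where fewer cells of a type and less RNA per cell cannot be told apart.

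None of the tested member probe sets differed between mulberry and control rats by more than the spread between animals. With limma, 0 of 9 member probe sets passed a Benjamini-Hochberg adjusted p of 0.05, beside 0.0% of the 18625 probe sets tested. At an unadjusted limma p under 0.05 the count was 0 of 9 among members, beside 1.74% of all probe sets. Exact permutation of the group labels likewise gave a p under 0.05 for 0 of 9. Groups overlapped for every member probe set tested, whereas 0.344% of all tested probe sets had groups that did not overlap. The mean was higher in mulberry rats for 6 member probe sets and lower for 3.

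**Figure D1:**
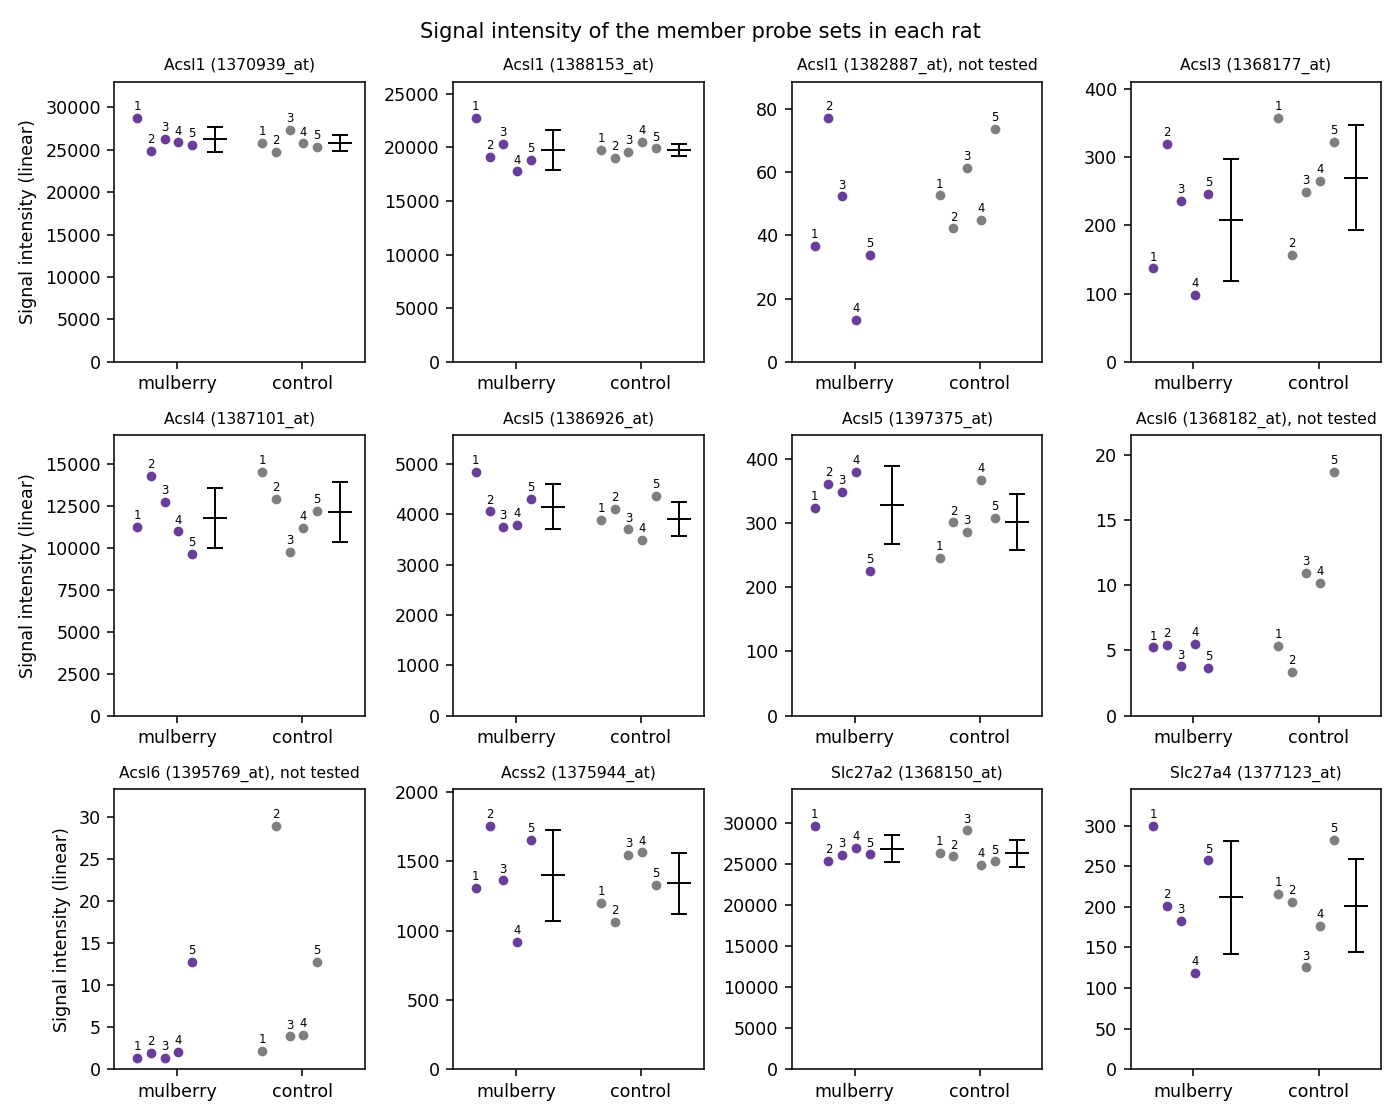
Signal intensity (linear, y axis from 0) of the 12 member probe sets in each mulberry and control rat (points, numbered by rat), with mean ± SD beside the points for the 9 tested probe sets. The groups overlap in every tested panel, and Acsl3 has both its lowest mulberry rats, rats 1 and 4, under the lowest control rat.

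Promoter sequence is shown for 4 members that range from no GC box (Acsl5) over Slc27a4 to the most GC boxes among the members (Acsl3 and Acss2). All 8 members matched a RefSeq window of the rat build GRCr8 that runs from 250 bases before to 50 bases after the gene's start. Capitals mark GC boxes (GGGCGG on either strand), the motif of the factor Sp1.
Acsl5, chr1:264294601-264294900, plus strand: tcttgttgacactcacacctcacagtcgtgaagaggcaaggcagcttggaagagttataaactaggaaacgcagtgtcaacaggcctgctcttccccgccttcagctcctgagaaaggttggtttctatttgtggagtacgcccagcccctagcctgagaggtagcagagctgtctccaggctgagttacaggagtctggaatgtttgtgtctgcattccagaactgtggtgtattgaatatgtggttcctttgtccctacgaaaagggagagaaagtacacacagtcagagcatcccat
Slc27a4, chr3:33472653-33472952, plus strand: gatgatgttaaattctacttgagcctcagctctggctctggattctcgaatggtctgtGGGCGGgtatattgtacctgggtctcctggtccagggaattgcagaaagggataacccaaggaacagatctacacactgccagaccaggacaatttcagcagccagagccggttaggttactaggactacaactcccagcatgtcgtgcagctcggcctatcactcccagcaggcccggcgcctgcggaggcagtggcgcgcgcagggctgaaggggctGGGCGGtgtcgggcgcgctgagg
Acsl3, chr9:87563351-87563650, plus strand: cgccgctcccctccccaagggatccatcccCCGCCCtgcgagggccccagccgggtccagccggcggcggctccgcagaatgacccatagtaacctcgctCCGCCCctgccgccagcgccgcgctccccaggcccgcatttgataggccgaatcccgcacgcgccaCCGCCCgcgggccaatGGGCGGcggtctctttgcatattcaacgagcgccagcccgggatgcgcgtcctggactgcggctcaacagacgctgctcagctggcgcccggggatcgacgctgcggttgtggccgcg
Acss2, chr3:164464453-164464752, plus strand: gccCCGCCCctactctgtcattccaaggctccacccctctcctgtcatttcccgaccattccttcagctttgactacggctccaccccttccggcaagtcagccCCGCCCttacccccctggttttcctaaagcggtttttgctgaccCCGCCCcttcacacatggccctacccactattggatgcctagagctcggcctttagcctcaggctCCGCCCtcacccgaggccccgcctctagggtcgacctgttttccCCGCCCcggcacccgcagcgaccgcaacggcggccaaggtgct

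The windows of Acsl3 and Acss2 were rich in G and C, at 72.7% and 64%, and held 4 and 5 GC boxes. The Slc27a4 window had 58.7% G and C and 2 GC boxes, and the Acsl5 window 49.7% and 0. Over all 8 members, 5 windows held a GC box, beside 33.1% of 33469 promoter windows, whose median G and C content was 51.7%. The bright genes Acsl1 and Slc27a2 had windows of 40.7% and 41.7% G and C with 0 GC boxes. Acsl4, bright as well, had 70.7% and 2 GC boxes, and Acsl6, under the filter, 60.3% and 1. Whether promoter sequence bears on a member's level or spread was not tested. A CCAAT box (CCAAT on either strand) was in 3 member windows, those of Acsl1, Acsl3 and Acss2, beside 37.5% of all windows. Neither the sterol regulatory element TCACNCCAC (1.12% of all windows) nor the PPAR direct repeat, 2 copies of AGGTCA with 1 base between them (0.0538% of all windows), searched on both strands, occurred in a member window.

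Acsl1, the major long-chain acyl-CoA synthetase of liver and a target of the fatty acid receptor PPAR-alpha, was nearly constant across rats. Probe set 1370939_at had intensities of 28731, 24872, 26271, 25869 and 25580 in mulberry rats 1 to 5, against 25830, 24796, 27369, 25755 and 25352 in control rats 1 to 5. Mulberry rat 1 was the highest of all, and the other mulberry rats lay within the control range. The difference (mulberry minus control, in units of log2(intensity + 16)) was 0.024 ± 0.063 (SE; 95% confidence interval -0.11 to 0.16; limma adjusted p = 0.9999). This interval spans folds of 0.925 to 1.12. The highest rat exceeded the lowest by 1.16 times, and without mulberry rat 1 the difference was -0.0092.

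The second tested Acsl1 probe set, 1388153_at, read 22711, 19126, 20284, 17744 and 18847 in mulberry rats, against 19790, 19039, 19557, 20525 and 19896 in control rats. Mulberry rat 1 lay above every control rat and mulberry rats 4 and 5 below every one, while control rats were close together. The SD was 1890 in mulberry and 540 in control rats (n = 5 each), and the difference was -0.0061 ± 0.075 (SE; limma adjusted p = 0.9999). Over the 10 rats both probe sets correlated with r = 0.676. The third Acsl1 probe set, 1382887_at, was dim, at 13.2 to 77.1 in mulberry rats and 42.2 to 73.7 in control rats.

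Acsl3, an enzyme of the endoplasmic reticulum and of growing lipid droplets, had the largest difference and the largest spread among the tested members. Intensities were 137, 319, 235, 98.5 and 246 in mulberry rats 1 to 5, against 357, 156, 249, 264 and 322 in control rats 1 to 5. Mulberry rats 1 and 4 lay under every control rat, and the other 3 mulberry rats lay inside the control range. Means were 207 ± 88.9 in mulberry and 270 ± 76.9 in control rats (SD, n = 5 each). The difference was -0.41 ± 0.29 (SE; 95% confidence interval -1.04 to 0.21; limma unadjusted p = 0.179, adjusted p = 0.9999), and the exact permutation p was 0.238. Without mulberry rat 4 the difference was -0.20. The interval reaches from a fold of 0.487 to 1.16.

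Acsl4, which prefers arachidonic acid, read 11216, 14274, 12709, 10958 and 9630 in mulberry rats 1 to 5, against 14499, 12904, 9748, 11157 and 12171 in control rats 1 to 5. Both groups spread over almost the same range. The difference was -0.041 ± 0.12 (SE; 95% confidence interval -0.31 to 0.23; limma adjusted p = 0.9999), and its sign turned without mulberry rat 5 (0.027) or control rat 1 (0.027).

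Acsl5, a synthetase of mitochondria and endoplasmic reticulum that is abundant in intestine and liver, read 4844, 4060, 3749, 3788 and 4308 in mulberry rats 1 to 5. Control rats 1 to 5 read 3883, 4114, 3704, 3488 and 4367. Mulberry rat 1 was the highest rat and control rat 4 the lowest, with the other rats of both groups in between. The difference for this probe set, 1386926_at, was 0.083 ± 0.098 (SE; 95% confidence interval -0.13 to 0.29; limma adjusted p = 0.9999). A second Acsl5 probe set, 1397375_at, read 226 to 380 in mulberry rats and 246 to 368 in control rats, with a difference of 0.10 ± 0.16 (SE; limma adjusted p = 0.9999). Both probe sets had a higher mean in mulberry rats, yet over single rats they correlated with r = -0.290.

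Acsl6, a synthetase best known from brain, stayed under the filter. Probe set 1368182_at read 3.66 to 5.49 in mulberry rats and 3.34 to 18.7 in control rats. Probe set 1395769_at read 1.32 to 12.8 in mulberry rats and 2.19 to 28.9 in control rats. The lowest value in the whole table is 1, and whether Acsl6 RNA was present in these livers cannot be read from such intensities.

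Acss2 makes acetyl-CoA from acetate in cytosol and nucleus and is a target of the lipogenic factors SREBP. Its intensities were 1307, 1756, 1361, 920 and 1652 in mulberry rats 1 to 5, against 1197, 1064, 1547, 1563 and 1328 in control rats 1 to 5. Mulberry rats 2 and 5 lay above every control rat and mulberry rat 4 below every one. The mean was 1399 ± 328 in mulberry and 1340 ± 218 in control rats (SD, n = 5 each), a difference of 0.043 ± 0.17 (SE; 95% confidence interval -0.33 to 0.41; limma adjusted p = 0.9999). Without mulberry rat 4 the difference was 0.18, and its sign turned without mulberry rat 2 (-0.047), mulberry rat 5 (-0.025) or control rat 2 (-0.035).

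Slc27a2 is a very-long-chain acyl-CoA synthetase of peroxisomes that also serves fatty acid uptake into hepatocytes. It read 29718, 25462, 26200, 26988 and 26216 in mulberry rats 1 to 5, against 26373, 25964, 29132, 24915 and 25360 in control rats 1 to 5. One rat of each group, mulberry rat 1 and control rat 3, stood above the rest. The difference was 0.031 ± 0.069 (SE; 95% confidence interval -0.12 to 0.18; limma adjusted p = 0.9999), which spans folds of 0.921 to 1.13. Without mulberry rat 1 it was -0.0054.

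Slc27a4, a transport protein and synthetase for long and very long chains, read 300.0, 201, 182, 119 and 257 in mulberry rats 1 to 5. Control rats 1 to 5 read 216, 206, 125, 177 and 282. The highest and the lowest rat were both mulberry rats, and the group means of 212 ± 69.8 in mulberry and 201 ± 57.4 in control rats (SD, n = 5 each) differed little against this spread. The difference was 0.053 ± 0.24 (SE; 95% confidence interval -0.47 to 0.58; limma adjusted p = 0.9999), and it was 0.23 without mulberry rat 4. Its sign turned without mulberry rat 1 (-0.080), mulberry rat 5 (-0.027) or control rat 3 (-0.092).

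**Figure D2:**
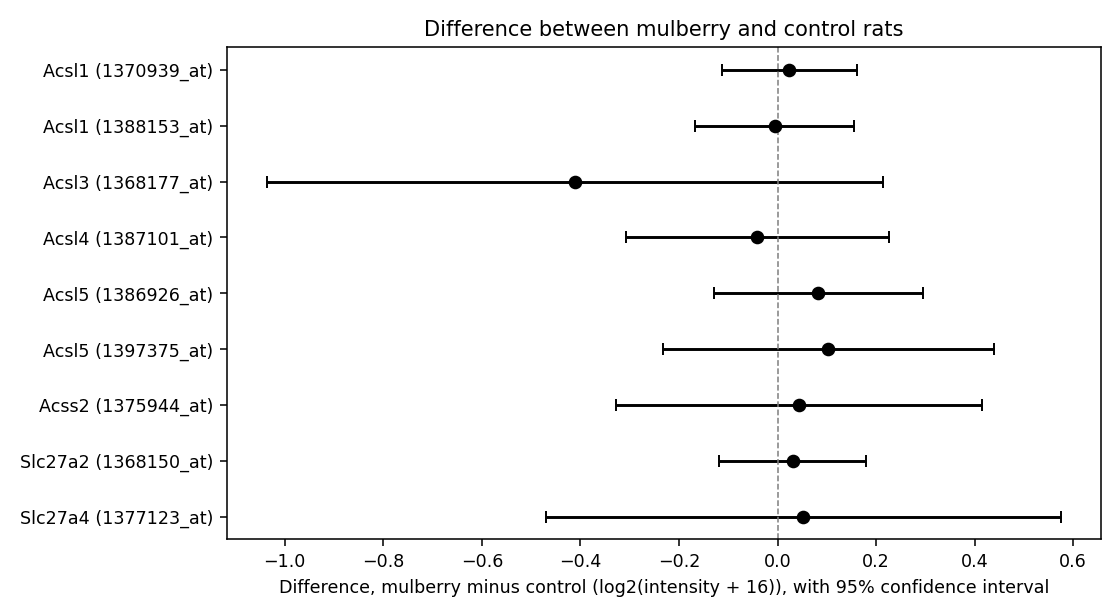
Difference between mulberry and control rats for the 9 tested member probe sets, as mulberry minus control in units of log2(intensity + 16) (points), with the 95% confidence interval from limma (bars). Every interval crosses 0, and the intervals run from narrow for Acsl1 (-0.11 to 0.16) to wide for Acsl3 (-1.04 to 0.21).

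How firmly a small change can be bounded thus differed between members. The SD within groups on the log2 scale was 0.067 for Acsl1 (1370939_at) and 0.087 for Slc27a2, against 0.31 for Acss2, 0.44 for Slc27a4 and 0.54 for Acsl3. Because spread can depend on signal level, each member was also set against the 500 tested probe sets closest to it in mean level. Of the 500 neighbours, 2.6% had a smaller SD than Acsl1 (1370939_at), 13.0% a smaller SD than Slc27a2 and 20.0% a smaller SD than Acsl5 (1386926_at). Acsl1 (1370939_at) and Slc27a2 lay at percentiles 99.7 and 99.8 of mean level among probe sets other than controls. Most of their neighbours were therefore dimmer, and their level was matched from 1 side only in large part. For Acsl4 the share was 73.6%, for Acss2 79.0%, for Slc27a4 81.4% and for Acsl3 94.2%. The second tested probe set of Acsl1, 1388153_at, had an SD of 0.099 and a share of 19.8%. That of Acsl5, 1397375_at, had an SD of 0.245 and a share of 46.6%. How steady Acsl1 and Acsl5 appeared beside their neighbours thus depended on the probe set. The brightest probe set of an array read between 40721 and 49485, and whether compression of bright signals narrows the spread of Acsl1 and Slc27a2 was not tested.

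Single rats stood out across several members. Mulberry rat 1 was the highest of all rats in 5 of the 9 tested probe sets, those of Acsl1 (both), Acsl5 (1386926_at), Slc27a2 and Slc27a4. Mulberry rat 4 was the lowest in 4, those of Acsl1 (1388153_at), Acsl3, Acss2 and Slc27a4, and the highest in 1, Acsl5 (1397375_at). The median deviation from the mean of all rats over the 9 probe sets was 0.14 in mulberry rat 1 and -0.11 in mulberry rat 4 on the log2 scale. In the other rats it lay between -0.044 and 0.017. The rat that was often highest and the rat that was often lowest thus belong to the same group. How often each rat was highest or lowest over all tested probe sets was not counted. Whether these rats stand out in the members more than in other genes was thus not tested.

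**Figure D3:**
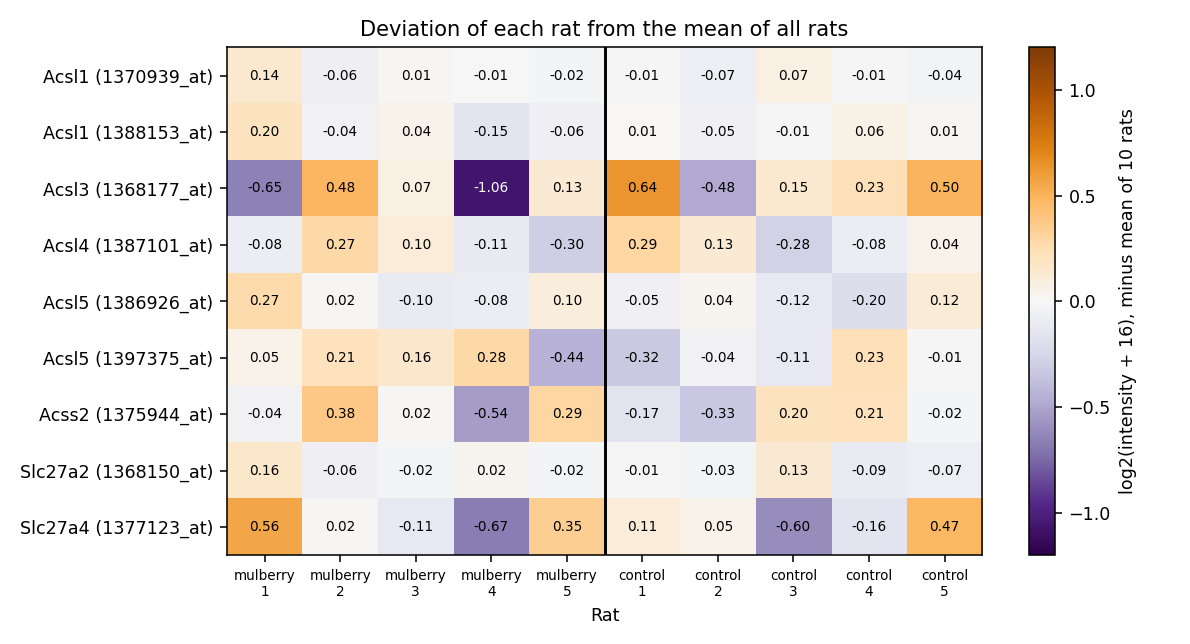
Deviation of each rat (columns, mulberry left, control right) from the mean of all 10 rats on the log2(intensity + 16) scale, for the 9 tested member probe sets (rows); the numbers in the cells are the deviations. Acsl3 ranges from -1.06 in mulberry rat 4 to 0.64 in control rat 1, while the first Acsl1 probe set stays between -0.07 and 0.14.

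Across the 10 rats, members were compared in pairs and with Fasn (fatty acid synthase), Cpt1a (the mitochondrial entry enzyme for long-chain acyl-CoA) and Cyp4a1 (a fatty acid omega-hydroxylase under PPAR-alpha). Of 42 pairs, 21 among members and 21 with these 3 genes, 0 passed an adjusted permutation p of 0.05 by Pearson's r and 0 by Spearman's rho. At an unadjusted permutation p under 0.05 there were 6 pairs by Pearson's r. The labels give no batch within which the relations could be repeated.

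The pair with the highest rank correlation was Acsl5 and Slc27a4. Pearson's r was 0.797 (permutation p = 0.0058, adjusted 0.122) and Spearman's rho 0.879 (permutation p = 0.00178, adjusted 0.0748) over 10 rats. Without mulberry rat 1 and control rat 4, the rats farthest from the Acsl5 median, r was 0.855. Within mulberry rats alone r was 0.866 and within control rats alone 0.753. These values are for the brighter Acsl5 probe set, 1386926_at, and the relation failed the correction. For the other tested Acsl5 probe set, 1397375_at, the sign was turned, with r = -0.376 (permutation p = 0.282, adjusted 0.742) and rho = -0.491 (permutation p = 0.155, adjusted 0.773). That r was -0.229 without mulberry rat 5 and control rat 1. This second probe set was tried after seeing the data, and the relation of Acsl5 to Slc27a4 thus depends on the probe set.

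Acsl1 and Slc27a2 had r = 0.887 (permutation p = 0.00276, adjusted 0.116) and rho = 0.745 (permutation p = 0.0178, adjusted 0.374). Mulberry rat 1 and control rat 3 were the top rats for both genes, and without them r was 0.362, so the relation rests on those 2 rats. Quantile normalization between arrays gave r = 0.701. Without control rat 4 alone r was 0.933 (permutation p = 9.0e-04, adjusted 0.0378), the only pair to pass the correction on leaving out 1 rat. The second tested Acsl1 probe set, 1388153_at, had r = 0.375 (permutation p = 0.290, adjusted 0.742) and rho = -0.103 (permutation p = 0.787, adjusted 0.983), and r was -0.199 without mulberry rats 1 and 4. For Acsl3 and Acss2 r was 0.659 (permutation p = 0.0389, adjusted 0.327) and rho 0.418 (permutation p = 0.235, adjusted 0.814), and r was 0.375 without mulberry rats 1 and 4. Without mulberry rat 4 alone, low in both genes, r was 0.387, and without mulberry rat 1 alone it was 0.701, so this relation rests on mulberry rat 4. Leaving out single rats was tried after seeing the data.

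The remaining pairs under an unadjusted permutation p of 0.05 by Pearson's r joined a member to a gene of another lipid pathway. Acsl3 and Fasn had r = 0.636 (permutation p = 0.0498, adjusted 0.348) and rho = 0.685 (permutation p = 0.0345, adjusted 0.463), with r = 0.534 without mulberry rats 1 and 4. Acsl4 and Cpt1a had r = -0.658 (permutation p = 0.0173, adjusted 0.242) and rho = -0.527 (permutation p = 0.122, adjusted 0.639). That r was -0.547 without mulberry rat 2 and control rat 1, and -0.229 with quantile normalization. Acsl1 and Fasn had r = -0.676 (permutation p = 0.0328, adjusted 0.327) and rho = -0.624 (permutation p = 0.0602, adjusted 0.463). That r was -0.346 without mulberry rat 1 and control rat 3, and its sign turned with quantile normalization (r = 0.212). The second tested Acsl1 probe set, 1388153_at, tried after seeing the data, had r = -0.492 with Fasn (permutation p = 0.143, adjusted 0.742). Without mulberry rats 1 and 4 it had r = -0.331. By Spearman's rho only, Slc27a2 and Cpt1a were also under 0.05, with rho = 0.648 (permutation p = 0.0483, adjusted 0.463). Their Pearson's r was 0.377 (permutation p = 0.275, adjusted 0.742), and rho was 0.333 without mulberry rat 1 and control rat 3.

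**Figure D4:**
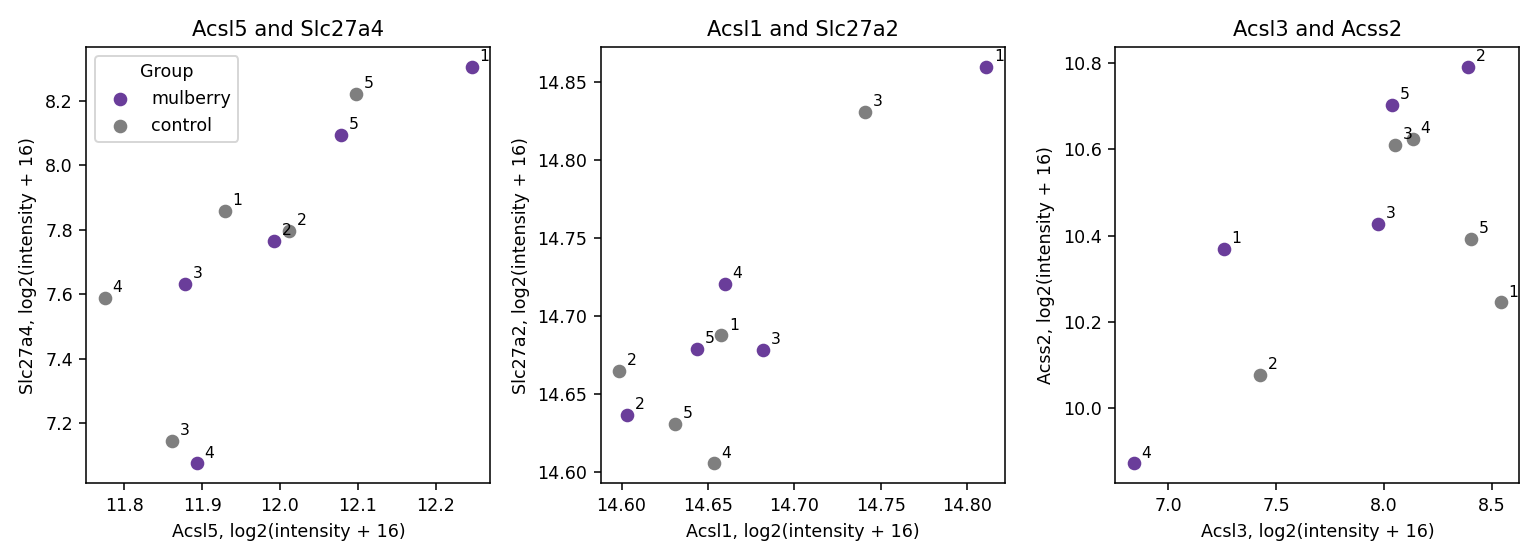
Level of 1 member against another in each rat, both on the log2(intensity + 16) scale, for Acsl5 and Slc27a4, Acsl1 and Slc27a2, and Acsl3 and Acss2 (mulberry and control rats in different colours, numbered). Acsl5 and Slc27a4 (each gene by its brighter probe set) have r = 0.797, and mulberry rat 1 and control rat 3 stand at the top right for Acsl1 and Slc27a2.

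For each tested member the 2 other genes with the most similar profile over the 10 rats were found by Pearson's r among 10321 genes. With so many genes and 10 rats high values arise easily, and they are given as a description. Acsl1 was closest to Rup2 (r = 0.916) and to Hpx (r = 0.912), which encodes the plasma protein hemopexin. For Acsl3 they were Nnt (r = 0.967), the mitochondrial NAD(P) transhydrogenase, and Mvk (r = 0.921), mevalonate kinase of cholesterol synthesis. Nnt read 7158 ± 830 in mulberry and 7700 ± 439 in control rats (SD, n = 5 each).

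Acsl4 came closest to Ofd1 (r = 0.962) and Efl1 (r = 0.938), and Acsl5 to Focad (r = 0.947) and Hcls1 (r = 0.937). Acss2 was closest to Akr7a2 (r = 0.976), an aldehyde reductase, and Tmem177 (r = 0.934). Slc27a2 paired with Pold4 (r = 0.945) and Rps23 (r = 0.904), and Slc27a4 with Chmp1a (r = 0.936) and Acsm1 (r = 0.918), a medium-chain acyl-CoA synthetase of the same superfamily. None of these 14 genes passed the limma test between groups (adjusted p = 0.9999 each), beside 0.0% of all 18625 probe sets tested. That count thus does not set them apart from other genes.

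Beyond the members, genes of neighbouring steps were read from lists, with 1 probe set a gene. Over all 10328 genes tested, 51.3% had a higher mean in mulberry rats and the median difference was 0.0035. Of the 7 tested member genes 5 were on the higher side, and their median was 0.031. Without mulberry rat 1 the count was 2 of 7 (median -0.0092), and with quantile normalization 3 of 7 (median -0.0013). In every list named below, 0 members passed an adjusted limma p of 0.05 in either direction.

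The other acyl-CoA synthetases had a higher mean in 7 of 12 cases (median 0.061). With the filter at the 60th percentile, which removes dim genes, it was 3 of 8 (median -0.012). Slc27a3, a transport protein of the same family, read 95.6 ± 14.0 in mulberry and 67.3 ± 23.4 in control rats (SD, n = 5 each; difference 0.46 ± 0.22 SE, limma unadjusted p = 0.0546, adjusted p = 0.9999). Slc27a5, the bile acid-CoA ligase of liver, read 22987 ± 1906 in mulberry and 24554 ± 1894 in control rats. Thioesterases, which cleave acyl-CoA back to the free acid, had a higher mean in 6 of 10 cases and a median of 0.0080. Acot1 read 574 to 821 in mulberry rats and 124 to 2295 in control rats, with medians of 693 and 227, so its control rats spread far on both sides. It shares sequence with close paralogs, and its probe set may read them too. Acot8, a peroxisomal thioesterase, read 571 ± 17.4 in mulberry and 633 ± 111 in control rats.

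Genes of coenzyme A synthesis, which supplies the other substrate of the reaction, had a lower mean in mulberry rats in 7 of 7 cases. Their median difference was -0.11 and the differences ran from -0.20 to -0.018. Without mulberry rat 4 the median was -0.022, with 6 of 7 genes lower. Leaving out mulberry rat 3 or control rat 5 gave 5 of 7 genes lower (medians -0.086 and -0.13). Pank2, a pantothenate kinase, read 454 ± 63.3 in mulberry and 509.8 ± 64 in control rats, and Coasy, which completes the molecule, 1081 ± 118 in mulberry and 1170 ± 34.2 in control rats (SD, n = 5 each). At an unadjusted limma p under 0.05 the count was 0 of 7, beside 1.79% of all genes.

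Genes of fatty acid uptake and binding had a lower mean in 8 of 11 cases, with a median of -0.050. Without mulberry rat 4 it was 5 of 11, with a median of 0.014. Dbi, the acyl-CoA binding protein, read 14438 ± 1257 in mulberry and 16302 ± 2298 in control rats, and the fatty acid binding protein Fabp5 500.4 ± 220 in mulberry and 619 ± 182 in control rats (SD, n = 5 each). Enzymes that use acyl-CoA had a lower mean in 7 of 11 cases, with a median of -0.031. This count, too, was 5 of 11 without mulberry rat 4, with a median of 0.0091. Elovl6, an elongase, read 230 ± 62.7 in mulberry and 189 ± 68.1 in control rats, and Dgat1, which closes triglyceride synthesis, 1254 ± 101 in mulberry and 1366 ± 138 in control rats.

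Of the 13 lipid transcription factors and cofactors, 6 had a higher mean (median -0.011). Ppara, the receptor PPAR-alpha, read 133 ± 63.2 in mulberry and 184 ± 36.7 in control rats, with mulberry rat 2 far below the others. Insig2, a retention protein of the SREBP system, read 9376 ± 5192 in mulberry and 10842 ± 3171 in control rats (SD, n = 5 each).

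**Figure D5:**
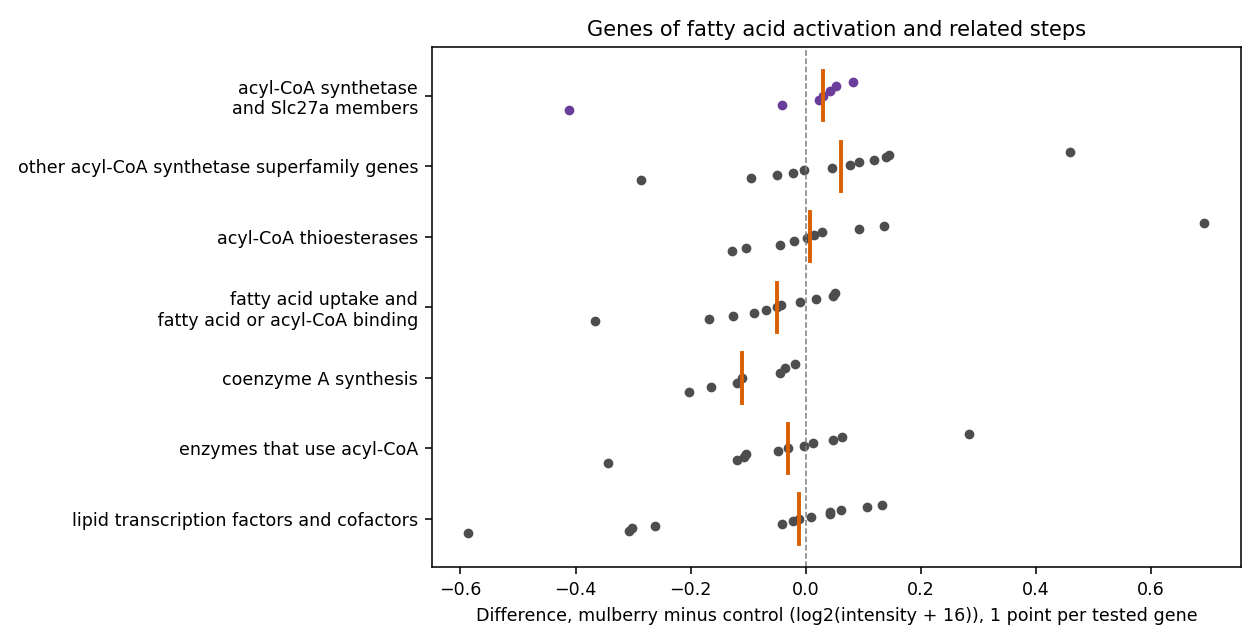
Difference between mulberry and control rats (x axis, in units of log2(intensity + 16), mulberry minus control) for each tested gene (points) of the members and of 6 related lists, with the median of each list as a vertical bar. The 7 genes of coenzyme A synthesis all lie left of 0 (median -0.11), and the member with the lowest value is Acsl3 (-0.41).

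Cell type markers were read in the same way. Hepatocyte markers had a higher mean in 9 of 9 cases with a median of 0.037. With quantile normalization 5 of 9 were higher and the median was 0.0042, and without mulberry rat 4 the count was also 5 of 9. Among the markers were Apob at 33626 ± 1906 in mulberry and 30175 ± 2699 in control rats and Fgb at 35288 ± 3344 in mulberry and 33680 ± 1028 in control rats (SD, n = 5 each). Kupffer cell and macrophage markers had a higher mean in 4 of 7 cases (median 0.068, range -0.96 for Lyz2 to 0.39 for Cd68), with 2 of 7 at an unadjusted limma p under 0.05, beside 1.79% of all genes. These were Cd14, at 3838 ± 834 in mulberry and 4937 ± 679 in control rats, and Cd68, at 920 ± 241 in mulberry and 678 ± 65.7 in control rats, both at an adjusted p of 0.9999. They went in opposite directions, and the exact permutation p was 0.0556 for Cd14 and 0.0873 for Cd68. Lyz2 falls outside the rule for named genes and is given after its value was seen. The summed intensity of this list was 8935 to 21103 in mulberry and 15112 to 22142 in control rats.

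The other marker lists were small. Of 3 tested adipocyte genes 2 had a higher mean (median difference 0.083, with Cfd at 0.24, Cidea at 0.083 and Pck1 at -0.0090). The listed adipocyte markers Adipoq, Plin1 and Lep lay under the filter and were not tested. Of 3 red blood cell genes 2 had a higher mean (median 0.048, with Slc4a1 at -0.30 and Hbb at 0.15). Of 4 lymphocyte genes 2 were higher and 2 lower, namely Cd4 at 0.29, Cd3g at 0.24, Cd8a at -0.012 and Ms4a1 at -0.10 (median 0.11). Of 6 endothelial genes 3 were higher and 3 lower (median 0.0023, with Emcn at 0.22 and Eng at -0.16). Of 6 stellate cell and bile duct genes 5 were higher and 1 lower (median 0.14). The stellate genes Reln and Lrat stood at 0.20 each, the bile duct genes Krt19 at -0.16 and Epcam at 0.040. Pck1, Cd8a, Ms4a1, Krt19 and Epcam fall outside the rule for named genes and are given after their values were seen. In each of these lists 0 genes passed limma, adjusted or at an unadjusted p under 0.05. Whether cell makeup bears on any member's level was not tested.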

How the data were processed

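Livers of 5 mulberry and 5 control rats were measured on 1 array each. The table deposited by the authors holds a linear signal intensity for each of 31099 probe sets on every array. The submitters' processing notes name MAS5 and affy without version or role. The 2% trimmed mean of the deposited intensity values was 500 on all arrays, and they were not scaled again. Detection calls were not used here, and the number of arrays limits the precision.

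Values were taken as log2(intensity + 16), which understates differences of dim probe sets. Of all probe sets, 57 controls were removed, then those whose mean log2 value did not exceed the 40th percentile (intensity 61.1). Groups were compared with limma 3.58.1 in R 4.3.3 (two-sided, variance trend, Benjamini-Hochberg over 18625 probe sets), a procedure checked on simulated data. For a gene with several tested probe sets the brightest, by mean log2 value, stands for the gene. Single probe sets were also tested by exact permutation (two-sided, smallest possible p 0.00794). Correlations had a two-sided permutation test with 100000 resamples, adjusted over 42 pairs. Another partner gene chosen for correlations is not reported here. In the platform annotation 20826 probe sets had 1 symbol, 436 several and 9780 none, and 20758 matched RefSeq (GRCr8) by Entrez identifier. Tables were made in Python 3.11.15.

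The members, lists and tests were chosen with earlier results of these data known. The rule named all member probe sets, the 2 genes of each other list with the smallest unadjusted p, the correlation partners and the 2 genes most alike to each member. Alternatives were pseudocounts of 1 and 64, filters (none, 60th percentile), shifting arrays to 1 median or quantile normalization, limma with array weights or without the trend, a block for replicate number, the median over a gene's probe sets, and leaving out each array.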

Additional observations from a re-analysis of the deposited data

Results flagged for a closer look

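In 76 groups of 5 rats, 24 of them for member probe sets and the rest for other named genes, the highest or lowest rat was set against the rest by its gap to the nearest rat over the group's range, on the log2 scale. Chance flags about 1 in 20 such groups, and 2 of 76 stood out here. For the Acsl6 probe set 1395769_at, mulberry rat 5 read 12.8 while the other mulberry rats read 1.32 to 2.08 (gap over range 0.916). All these intensities lie under the filter level of 61.1. For Ppara, mulberry rat 2 read 25.8 while the other mulberry rats read 130.0 to 183 (gap over range 0.801).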

How the results depend on the processing

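Under each alternative run, 0 probe sets of any gene and 0 member probe sets passed limma's adjusted p of 0.05. At an unadjusted p under 0.05, over all genes, there were 325 probe sets as reported, 878 with no filter, 171 with the filter at the 60th percentile and 487 with array weights, against 0 member probe sets in each case. The differences of Acsl3 and Acsl5 kept their sign in every alternative. Changing the filter, dropping the variance trend or adding the block left these differences as they were, so those alternatives could not turn a sign. The Acsl1 difference (0.024) turned to -0.0018 with quantile normalization, -0.0041 with a median shift and -0.0061 with the median over its 3 probe sets, the dim one included. Slc27a2 (0.031) turned to -0.0013 with quantile normalization. The second Acsl1 probe set, 1388153_at (-0.0061), turned to 0.0057 with array weights. Leaving out 1 rat at a time moved the difference between -0.0092 and 0.045 for Acsl1, -0.58 and -0.20 for Acsl3, -0.12 and 0.027 for Acsl4, 0.026 and 0.12 for Acsl5, -0.047 and 0.18 for Acss2, -0.0054 and 0.068 for Slc27a2, -0.092 and 0.23 for Slc27a4, and -0.058 and 0.031 for 1388153_at. The correlation of Acsl1 with Fasn turned from -0.676 to 0.212 with quantile normalization, and the cause was not tested. Other pairs turned as well, such as Acsl1 and Acsl4 (r from -0.432 to 0.648, adjusted permutation p = 0.388 with quantile normalization). Rats with the same number in both groups did not deviate together (r from -0.326 to 0.0964 over 5 pairs, and 1 of 5 mulberry rats correlated best with the control rat of its number). With the replicate number as a block, limma called 0 probe sets, 286 at an unadjusted p under 0.05, and Acsl3 had a difference of -0.41 (limma unadjusted p = 0.222). Of 13 list medians, 9 changed sign under at least 1 alternative. The median ran from -0.012 to 0.12 for other synthetases, -0.11 to 0.014 for uptake and binding, -0.13 to -0.022 for coenzyme A synthesis, -0.042 to 0.25 for macrophage markers and 0.0042 to 0.095 for hepatocyte markers. Added after seeing the data, leaving out 1 rat at a time gave 0 to 1 pairs with an adjusted p under 0.05, with r between 0.782 and 0.933 for Acsl1 and Slc27a2 (adjusted p 0.0378 without control rat 4), and the second Acsl5 probe set turned the correlation with Slc27a4 to -0.376.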
